A study of Mus musculus with 12 samples.

Results

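The transcription factors of the oligodendrocyte lineage were examined as a group of 9 genes, Olig1, Olig2, Nkx2-2, Nkx6-2, Sox10, Sox8, Myrf, Zfp488 and Zfp536, among the 23354 gene symbols of a cortical expression table. The members were chosen by name as factors of the lineage, with earlier results of these data known. Each had 1 row in the table, and all 9 passed the filter on low values. Cortex was taken at postnatal day 16 from C57BL/6 mice, with 3 libraries in each of 4 groups. Dnmt1 conditional knockout (CKO) mice were Olig1cre/+;Dnmt1flox/flox and their littermate controls were Olig1+/+;Dnmt1flox/flox. Dnmt3a CKO mice were Olig1cre/+;Dnmt3aflox/flox, with littermate controls that were Olig1+/+;Dnmt3aflox/flox. All 4 groups therefore carried floxed alleles, and cre was present only in the CKO groups, at 1 copy of the Olig1 locus. Cre from this locus is expressed in the oligodendrocyte lineage, whereas the libraries came from whole cortex, so that transcripts of other cells were measured too. Dnmt1 maintains DNA methylation through cell division and Dnmt3a sets it de novo.

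Oligodendrocytes form when dividing progenitors leave the cell cycle and switch on the genes of the myelin sheath. Olig2 and Olig1 specify the lineage, Sox10 and Sox8 keep it and open myelin genes, and Myrf, which is induced in cells that have stopped dividing, drives the myelin programme together with Sox10. Nkx2-2 and Nkx6-2 are homeodomain factors of the same lineage, and Zfp488 and Zfp536 are zinc finger proteins, of which Zfp488 acts as a partner of Olig2 in repression.

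Levels are given as FPKM, a fragment count scaled to transcript length and library size, so that levels can be compared between genes. The spacing of the lowest FPKM values corresponded to about 36300000 to 42400000 fragments per library, and on this estimate a member was covered by between 79 fragments, for Nkx6-2 in its lowest library, and 4271 fragments, for Zfp488 in its highest. The targeted genes gave a partial check of the labels. Dnmt1 was at 10.6, 10.2 and 9.78 FPKM in the Dnmt1 controls and at 7.26, 9.11 and 9.09 FPKM in the Dnmt1 CKO, a log2 difference that did not pass the test (−0.27, adjusted p = 0.29 from limma). Dnmt3a was at 13.6, 14.2 and 15.4 FPKM in the Dnmt3a CKO, and at 31.1 and 28.7 FPKM in 2 of its controls, but the library labelled Dnmt3a control replicate 2 was at 16.9 FPKM. The log2 difference of Dnmt3a was −0.78 with an adjusted p of 0.66 (limma), and these FPKM cover whole transcripts, not the floxed exons alone. The summed level of 8 neuron markers was 1860 to 2023 FPKM over all groups. In the Dnmt3a line it was 1860 to 1932 FPKM in the controls and 1971 to 2012 FPKM in the CKO, without overlap. The Y-linked transcripts were present in all 3 Dnmt1 CKO libraries and in 2 of the 3 libraries of every other group. The summed level of 6 choroid plexus markers ranged from 3.47 to 421 FPKM, with ranges that overlapped between all groups.

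In the control cortex the factors spanned a wide range of levels in a similar order. In the Dnmt1 controls Olig1 was highest at 46.5 ± 4.46 FPKM (SD, n = 3), followed by Zfp488 at 20.8 ± 1.79, Sox8 at 14.8 ± 0.643, Sox10 at 14.1 ± 0.506, Olig2 at 10.3 ± 0.518, Myrf at 6.98 ± 0.712, Zfp536 at 3.15 ± 0.280, Nkx6-2 at 2.73 ± 0.276 and Nkx2-2 at 1.91 ± 0.305 FPKM. Only the neighbours Sox8 and Sox10, and Zfp536 and Nkx6-2, had ranges that overlapped. The Dnmt3a controls kept the same order except that Sox10, at 15.5 ± 1.95 FPKM, stood before Sox8, at 13.9 ± 0.767 FPKM, again with overlapping ranges.

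Because the study removes DNA methyltransferases, the start regions of the factors were read for their CG dinucleotides, the sites of these enzymes. RefSeq start regions of GRCm38.p6, 250 bases before to 50 bases after the start, were found for 6 of the 9 factors, Olig2, Sox8, Nkx2-2, Nkx6-2, Zfp488 and Zfp536. They held from 16 to 32 CG dinucleotides in 300 bases, all 6 above the median of 7 over 32851 such regions. Nkx6-2 had 32 CG, more than 90.5% of all regions, and the ratio of observed to expected CG was 0.97. Zfp488 had the fewest of the 6, with 16 CG and a ratio of 0.57. Olig2 had 25 CG and a ratio of 0.82. These 3 are shown because they span the range and because Nkx6-2 had the largest fall among the 6, Olig2 was lower with a moderate change, and Zfp488 was not lower. The others had 22 CG (Zfp536), 21 CG (Sox8) and 17 CG (Nkx2-2). The order by CG was not the order by fall. In the Dnmt1 CKO against its controls, the log2 difference was −0.74 for Nkx2-2 and −0.54 for Olig2. It was −0.43 for Sox8 and −0.26 for Zfp536, which was not called. A relation between CG and the changes was not tested. The capitals mark CG, and each sequence is on the strand of its gene, 5′ to 3′. The regions are chr16:91225300-91225599 (plus strand) for Olig2, chr7:139582748-139583047 (minus strand) for Nkx6-2 and chr14:33978715-33979014 (minus strand) for Zfp488.
Olig2: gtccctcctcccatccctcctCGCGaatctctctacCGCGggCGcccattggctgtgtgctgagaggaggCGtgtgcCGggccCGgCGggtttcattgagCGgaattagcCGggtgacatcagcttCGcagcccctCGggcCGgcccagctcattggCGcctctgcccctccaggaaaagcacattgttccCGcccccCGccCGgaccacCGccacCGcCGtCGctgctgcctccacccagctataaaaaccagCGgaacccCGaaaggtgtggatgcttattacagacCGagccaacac
Nkx6-2: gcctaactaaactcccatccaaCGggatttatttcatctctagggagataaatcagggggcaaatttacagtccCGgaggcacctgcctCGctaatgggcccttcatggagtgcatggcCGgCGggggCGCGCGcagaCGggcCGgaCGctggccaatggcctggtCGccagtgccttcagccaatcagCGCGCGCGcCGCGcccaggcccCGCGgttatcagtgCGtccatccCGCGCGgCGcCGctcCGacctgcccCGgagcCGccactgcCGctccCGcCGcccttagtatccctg
Zfp488: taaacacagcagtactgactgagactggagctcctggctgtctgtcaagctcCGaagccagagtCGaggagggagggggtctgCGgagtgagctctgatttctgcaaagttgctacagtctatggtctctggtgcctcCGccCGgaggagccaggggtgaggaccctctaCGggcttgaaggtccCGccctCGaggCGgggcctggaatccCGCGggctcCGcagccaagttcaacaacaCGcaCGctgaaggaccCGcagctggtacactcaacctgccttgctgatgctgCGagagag

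The start regions were also searched on both strands for 4 short words. CAGCTG, a form of the E-box that basic helix-loop-helix factors bind, was found in Zfp488 alone among the 6 and in 16.3% of all regions. ACAATG, a Sox-type word, was found in Olig2 alone and in 12.6% of all regions, and ACAAAG, a second such word, in 0 of the 6 and in 18.7% of all. TATAAA was found in Olig2 alone and in 13.6% of all regions. No word contains another, and a match describes these letters only.

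Of the factors, 7 fell in the cortex of Dnmt1 CKO mice. The call was made with limma on log2(FPKM + 0.1) at a 10% false discovery rate (FDR) over all 14115 rows tested, of which 2.3% were called lower. The 7 members were Olig1, Nkx6-2, Myrf, Sox10, Nkx2-2, Olig2 and Sox8, in order of the size of the fall. The median log2 fold change over the 9 members was −0.74, against −0.02 over all rows. In 8 members, the 7 and Zfp536, all CKO values were below those of the controls, and 20.8% of all rows had groups without overlap in either direction. The libraries are bulk samples, so that fewer cells of the lineage and less RNA of a factor in each cell cannot be told apart.

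**Figure D1:**
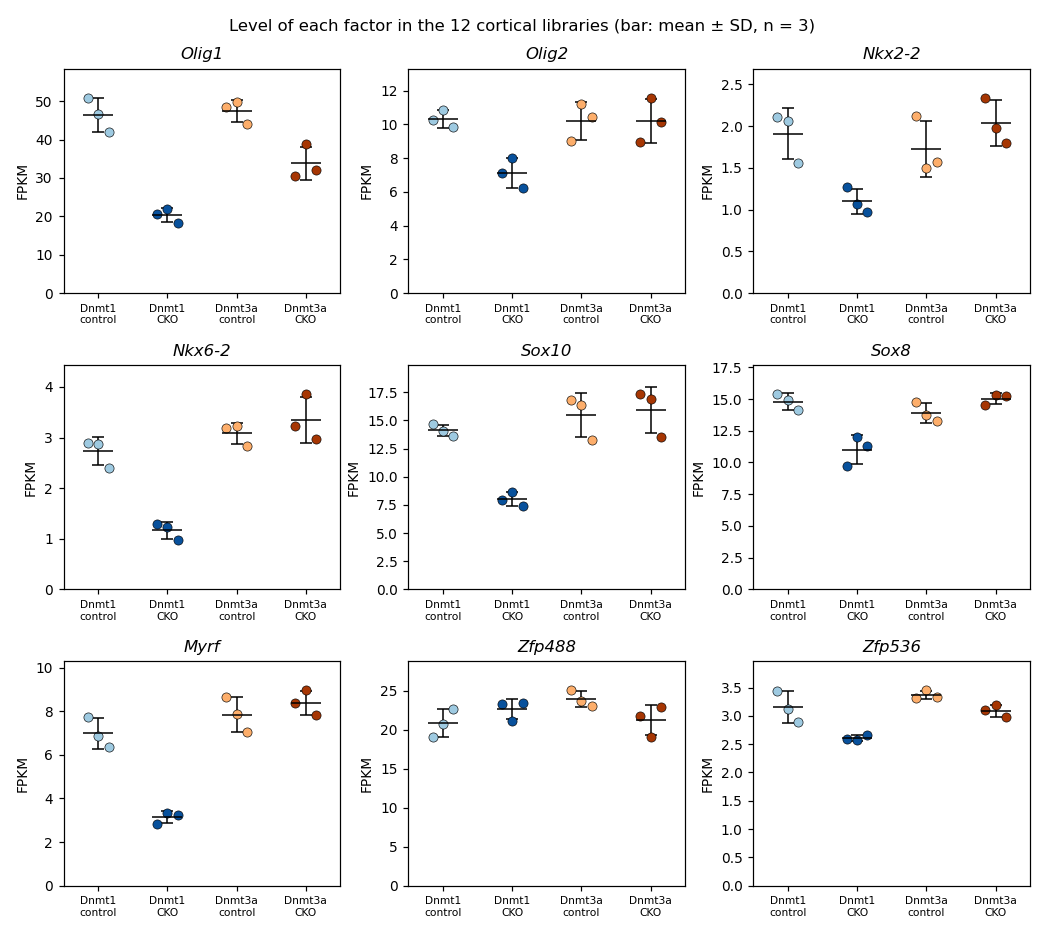
Level of each factor in FPKM (y axis, from 0) in every library of the 4 groups (x axis), with points for libraries and bars for the mean ± SD of 3 libraries. The 3 Dnmt1 CKO libraries lie below their controls for every factor but Zfp488, and in the Dnmt3a line only Olig1, Zfp488 and Zfp536 have groups that do not overlap.

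The basic helix-loop-helix genes Olig1 and Olig2 lie side by side on mouse chromosome 16. Olig1 (ENSMUSG00000046160.6, mm10, chromosome 16 from 91269772 to 91271933, plus strand) is a gene of 1 exon, and it is also the locus that carries cre. Olig1 was at 50.9, 46.6 and 42.0 FPKM in the Dnmt1 controls and at 20.6, 21.9 and 18.4 FPKM in the Dnmt1 CKO. The highest CKO library was thus at 47.2% of the control mean, and the mean of the CKO libraries was at 43.7% of it. The log2 fold change was −1.19 (95% confidence interval −1.42 to −0.96, adjusted p = 0.0043 from limma). A transcript on the opposite strand, Gm15966, overlaps Olig1 and shares 5.11% of its 50-base words, and the strand of the reads was not stated in the sources used here.

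Olig2 (ENSMUSG00000039830.9, chromosome 16 from 91225457 to 91228677, plus strand, 2 exons) starts 44.3 kb before Olig1. Its level was 10.3, 10.9 and 9.85 FPKM in the Dnmt1 controls and 7.11, 7.98 and 6.23 FPKM in the Dnmt1 CKO. The groups did not overlap, although the CKO libraries still held 68.8% of the control level. Olig2 fell by 0.54 on the log2 scale (95% confidence interval −0.77 to −0.30, adjusted p = 0.064 from limma).

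The homeodomain factors were the least abundant members in the controls of both lines. Nkx2-2 (ENSMUSG00000027434.11, chromosome 2 from 147177546 to 147194243, minus strand), which marks the progenitor domain of the lineage and promotes differentiation, was at 2.11, 2.06 and 1.56 FPKM in the Dnmt1 controls and at 1.27, 1.06 and 0.969 FPKM in the Dnmt1 CKO. Nkx6-2 (ENSMUSG00000041309.17, chromosome 7 from 139579376 to 139582797, minus strand), which is found in myelinating oligodendrocytes, had 2.90, 2.87 and 2.41 FPKM in the controls against 1.29, 1.23 and 0.978 FPKM in the CKO. Neither factor had a CKO library that reached its lowest control. The log2 fold change was −0.74 for Nkx2-2 (95% confidence interval −1.11 to −0.37, adjusted p = 0.092 from limma) and −1.16 for Nkx6-2 (−1.48 to −0.85, adjusted p = 0.013). Nkx2-2 shares 8.04% of its 50-base words with the opposite-strand transcript Nkx2-2os and Nkx6-2 10.7% with Inpp5a, which overlaps it on the other strand.

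Sox10 and Sox8 are related factors with overlapping duties in the lineage, and Sox10 is the one that myelin genes depend on. Sox10 (ENSMUSG00000033006.10, chromosome 15 from 79154908 to 79165240, minus strand) was at 14.6, 14.0 and 13.6 FPKM in the Dnmt1 controls and at 7.90, 8.66 and 7.41 FPKM in the Dnmt1 CKO, which is 56.6% of the control mean. Sox8 (ENSMUSG00000024176.10, chromosome 17 from 25565892 to 25570686, minus strand) had 15.4, 14.9 and 14.1 FPKM in the controls against 9.74, 12.03 and 11.3 FPKM in the CKO, which is 74.5% of the control mean. The ranges of Sox8 and Sox10 overlapped in the Dnmt1 controls but not in the Dnmt1 CKO. Within each library of this line, control or CKO, Sox8 stood above Sox10. Sox10 fell by 0.81 (95% confidence interval −0.97 to −0.66, adjusted p = 0.0045 from limma) and Sox8 fell by 0.43 (−0.63 to −0.22, adjusted p = 0.085) on the log2 scale. The gene 2810468N07Rik, on the opposite strand, shares 8.99% of the 50-base words of Sox8, and Sox10 shares 0%.

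Myrf (ENSMUSG00000036098.15, chromosome 19 from 10208272 to 10240748, minus strand), the factor of the myelinating stage, was at 7.74, 6.85 and 6.34 FPKM in the Dnmt1 controls and at 2.85, 3.34 and 3.25 FPKM in the Dnmt1 CKO. Every CKO library held at most 47.9% of the control mean. The log2 fold change was −1.12 (95% confidence interval −1.36 to −0.88, adjusted p = 0.0056 from limma).

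The zinc finger genes Zfp488 and Zfp536 were the members that were not called. Zfp488 (ENSMUSG00000044519.8, chromosome 14 from 33967070 to 33978764, minus strand) was at 19.1, 20.7 and 22.6 FPKM in the Dnmt1 controls and at 23.3, 21.2 and 23.4 FPKM in the Dnmt1 CKO. All 3 CKO libraries were above the control mean, but the groups overlapped, and the log2 difference of 0.12 did not pass the test (95% confidence interval −0.06 to 0.30, adjusted p = 0.52 from limma). The interval leaves out a fall of the size seen for Sox8. Of the 50-base words of the annotated Zfp488 transcript, 15.6% also occur in transcripts of other genes, the largest share among the 9, and how the authors treated reads with several matches is not given in the sources used here. Zfp536 (ENSMUSG00000043456.16, chromosome 7 from 37472135 to 37773641, minus strand), a repressor known from neuronal differentiation, had 3.44, 3.12 and 2.88 FPKM in the controls against 2.59, 2.56 and 2.67 FPKM in the CKO. The Zfp536 groups did not overlap, and the log2 difference of −0.26 (95% confidence interval −0.45 to −0.07) missed the threshold with an adjusted p of 0.22 from limma.

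The order of the factors in the Dnmt1 CKO was led by Zfp488, at 22.6 ± 1.26 FPKM, with Olig1 at 20.3 ± 1.81 FPKM in an overlapping range. The summed level of the 9 factors was 74.6 to 80.0 FPKM in the Dnmt1 CKO against 115 to 126 FPKM in its controls.

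Leaving out 1 library at a time gave 4 to 6 members called lower in the Dnmt1 line. The rows called in either direction became fewer as well, 199 to 341 of 14115 against 444 with all libraries. Olig1, Sox10, Myrf and Nkx6-2 passed whichever of the 6 libraries was left out, with adjusted p of at most 0.073 from limma. The count was 4 without control replicate 1, control replicate 2, CKO replicate 1 or CKO replicate 3, 5 without control replicate 3 and 6 without CKO replicate 2. The calls that were lost were those of Olig2, Sox8 and Nkx2-2, whose adjusted p reached 0.22, 0.25 and 0.27. Control replicate 3 was the library of this line without Y-linked transcripts, with Xist at 49.4 FPKM. Without it, in libraries that all had Y-linked transcripts, the log2 fold changes were −1.26 for Olig1, −0.57 for Olig2, −0.87 for Nkx2-2, −1.25 for Nkx6-2, −0.84 for Sox10, −0.46 for Sox8 and −1.19 for Myrf, each larger than with it.

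None of the 9 factors was called in the Dnmt3a line, where 0.0142% of all rows were called in either direction. At an unadjusted p under 0.05, 1 of the 9 members and 1037 of the 14115 rows passed with limma. That member was Olig1, at 48.4, 49.8 and 44.1 FPKM in the Dnmt3a controls and at 30.6, 38.8 and 32.2 FPKM in the Dnmt3a CKO. The groups did not overlap, and the Dnmt3a CKO libraries held 71.4% of the control mean. The log2 difference of −0.49 had a 95% confidence interval from −0.73 to −0.25, with an unadjusted p of 0.0024 and an adjusted p of 0.66 from limma. Over all alternatives the adjusted p ranged from 0.35 to 0.86.

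The other members of the Dnmt3a line had log2 differences between −0.17 for Zfp488 and 0.23 for Nkx2-2. Myrf was at 8.65, 7.85 and 7.03 FPKM in the Dnmt3a controls and at 8.37, 8.95 and 7.83 FPKM in the Dnmt3a CKO, and its 95% confidence interval was −0.12 to 0.32. Sox10 had 16.8, 16.3 and 13.2 FPKM in the controls against 17.3, 16.9 and 13.5 FPKM in the CKO, with an interval from −0.28 to 0.36. Both factors had overlapping groups. For Olig2, at 9.001, 11.2 and 10.4 FPKM against 8.94, 11.6 and 10.1 FPKM, the log2 difference was −0.00 with an interval from −0.29 to 0.29. Sox8 had 14.8, 13.7 and 13.3 FPKM in the Dnmt3a controls and 14.5, 15.3 and 15.2 FPKM in the Dnmt3a CKO, a log2 difference of 0.11. Nkx6-2 had 3.18, 3.22 and 2.84 FPKM against 3.23, 3.86 and 2.97 FPKM (0.11), and Nkx2-2 had 2.12, 1.503 and 1.57 FPKM against 2.34, 1.98 and 1.79 FPKM (0.23). The groups of Sox8 and of both homeodomain factors overlapped, and their CKO means were 108%, 109% and 118% of the controls. Zfp488 had 25.02, 23.7 and 22.99 FPKM in the controls and 21.7, 19.1 and 22.9 FPKM in the CKO, and Zfp536 had 3.31, 3.45 and 3.34 FPKM and 3.10, 3.18 and 2.98 FPKM. For each factor called in the Dnmt1 line, the interval in the Dnmt3a line left out a fall as large as the Dnmt1 line estimate. The lower ends for Nkx2-2 and Sox8 were −0.16 and −0.01. For Olig2 the difference between the lines did not pass its own test, given below. In 3 members, Olig1, Zfp488 and Zfp536, the groups did not overlap, all lower in the CKO, and 12.8% of all rows had groups without overlap. Without the library labelled Dnmt3a control replicate 2, the difference of Olig1 was −0.45 (adjusted p = 0.72 from limma), and 0 members were called. Olig1 in that library, at 49.8 FPKM, was the highest of its group.

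**Figure D2:**
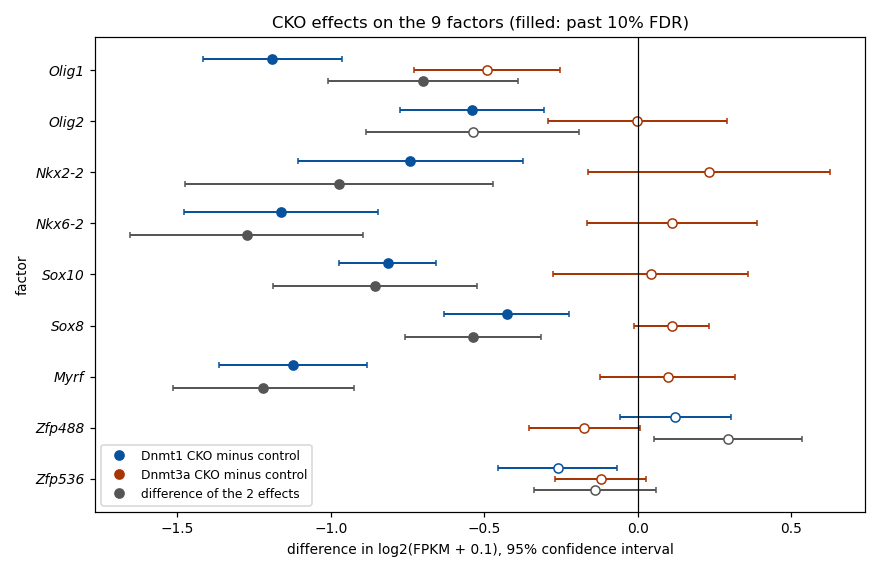
Difference in log2(FPKM + 0.1) with its 95% confidence interval from limma (x axis) for each factor (y axis), in the Dnmt1 line, in the Dnmt3a line and for the difference of the 2 effects, with filled points past 10% FDR. For the Dnmt1 line 7 factors are filled, none for the Dnmt3a line and 6 for the difference.

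The effect of the CKO was then compared between the lines in a model over all 12 libraries. It was lower in the Dnmt1 line for 6 members, while 1.83% of all rows were called lower in this test. The difference of effects on the log2 scale was −1.27 for Nkx6-2 (95% confidence interval −1.65 to −0.90, adjusted p = 0.0029 from limma), −1.22 for Myrf (−1.51 to −0.93, adjusted p = 0.00069), −0.97 for Nkx2-2 (−1.47 to −0.47, adjusted p = 0.072), −0.86 for Sox10 (−1.19 to −0.52, adjusted p = 0.015), −0.70 for Olig1 (−1.01 to −0.39, adjusted p = 0.032) and −0.54 for Sox8 (−0.76 to −0.32, adjusted p = 0.021). Olig2 had the same size as Sox8, −0.54, but a wider interval from −0.88 to −0.19 and an adjusted p of 0.19. Zfp488 had 0.30 (adjusted p = 0.34) and Zfp536 had −0.14 (adjusted p = 0.64). The Nkx2-2 call was lost, with an adjusted p of 0.14 to 0.20, when Dnmt1 control replicate 1 or 2, Dnmt1 CKO replicate 2 or 3, Dnmt3a control replicate 2 or 3, or Dnmt3a CKO replicate 1 or 2 was left out. Olig1 missed the threshold without Dnmt3a control replicate 3, with an adjusted p of 0.1001.

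Both CKO groups carry 1 cre allele at Olig1, so a direct comparison of the CKO groups holds that allele constant. The groups are of different floxed lines and litters, however, so line and litter cannot be told apart from the deleted gene here. The controls of the lines differed too. Their summed level of 10 markers of mature oligodendrocytes was 1809 to 2104 FPKM in the Dnmt1 line and 2309 to 2768 FPKM in the Dnmt3a line. The factors lower in the Dnmt1 CKO than in the Dnmt3a CKO were again 6, against 3.55% of all rows called lower. They were Nkx6-2 (log2 difference −1.45, adjusted p = 0.0061 from limma), Myrf (−1.39, adjusted p = 0.0010), Sox10 (−0.98, adjusted p = 0.0095), Nkx2-2 (−0.83, adjusted p = 0.035), Olig1 (−0.73, adjusted p = 0.025) and Sox8 (−0.45, adjusted p = 0.047). The 3 Olig1 values of the Dnmt1 CKO, 18.4 to 21.9 FPKM, lay below the 30.6 to 38.8 FPKM of the Dnmt3a CKO. Olig2 differed by −0.52 with an adjusted p of 0.11, Zfp536 by −0.23 with 0.12, and Zfp488 by 0.09 with 0.61. The Nkx2-2 call was lost without Dnmt1 CKO replicate 2 or 3 or Dnmt3a CKO replicate 2, and that of Sox8 without Dnmt1 CKO replicate 3 or any of the 3 Dnmt3a CKO replicates, with adjusted p of at most 0.13 and 0.15. These comparisons share the CKO libraries with those above and are not independent of them. In each line the cre allele is present in the CKO and absent from the control, so within a line its part in the Olig1 level and that of the deleted gene cannot be told apart.

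The cre locus was also read through its neighbours. Besides Olig1 and Olig2, 16 tested genes start within 500 kb of the Olig1 start, and 0 of them were called in either line. At an unadjusted p under 0.05 limma gave 3 of the 16 in the Dnmt1 line, where 15% of all rows passed, and 5 of the 16 in the Dnmt3a line, where 7.35% did. The 3 genes were Tmem50b (log2 difference −0.16), Il10rb (−0.21) and Urb1 (−0.16), and the 5 were Son (−0.13), Paxbp1 (−0.18), Itsn1 (−0.11), Synj1 (−0.09) and Ifnar1 (0.10). The log2 differences of the 16 genes were between −0.21 (Il10rb, an interleukin receptor subunit) and 0.15 (Ifnar2, an interferon receptor subunit) in the Dnmt1 line, and between −0.18 (Paxbp1) and 0.10 (Ifnar1) in the Dnmt3a line. Olig1 and Olig2 lay outside the range of these 16 genes in the Dnmt1 line, as did Olig1 in the Dnmt3a line.

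**Figure D3:**
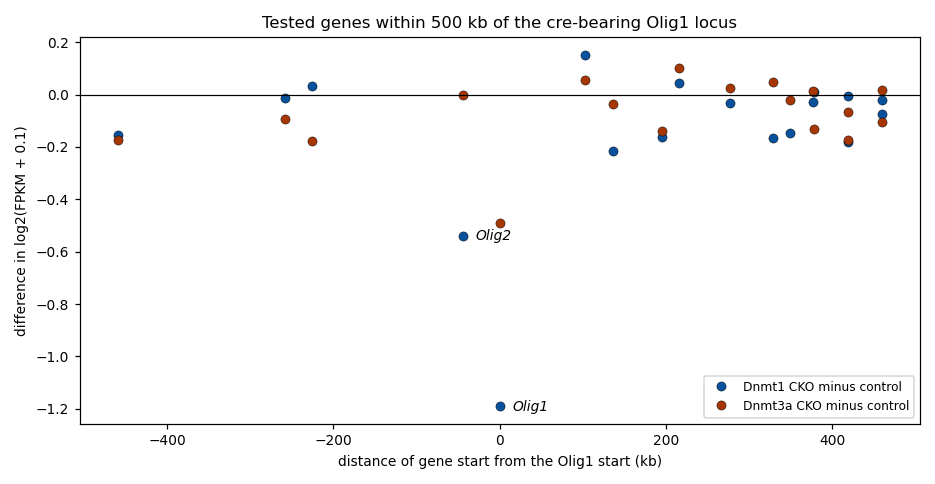
Difference in log2(FPKM + 0.1), CKO minus control (y axis), for the 18 tested genes that start within 500 kb of the Olig1 start, by distance in kb (x axis), in both lines. The 16 other genes lie between −0.21 and 0.15, Olig1 at −1.19 and −0.49, and Olig2 at −0.54 and −0.00.

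To see how the factors moved relative to each other, each level was divided by that of Olig2 in the same library. With 3 libraries against 3, the exact permutation test cannot give a p below 0.1, which is 0.27 after adjustment over the 16 ratios. In the Dnmt1 line 4 members had ratios in the CKO that were all below their controls, against 0.546% of all rows but Olig2. The Myrf ratio was 0.758, 0.633 and 0.647 in the Dnmt1 controls and 0.409, 0.426 and 0.529 in the CKO. The Nkx6-2 ratio was 0.290, 0.271 and 0.252 in the controls and 0.193, 0.165 and 0.170 in the CKO. The CKO ratios of both lay below all of their controls. The difference in log2 ratio was −0.58 for Myrf, −0.62 for Nkx6-2, −0.65 for Olig1 and −0.28 for Sox10 (exact permutation p = 0.1 and adjusted p = 0.27 for each). Sox8 (0.11) and Nkx2-2 (−0.20) had overlapping ratios. The Zfp488 ratio was 1.85, 1.89 and 2.28 in the controls and 3.24, 2.63 and 3.72 in the CKO, a log2 difference of 0.66 (exact permutation p = 0.1), and 90% of these rows had a higher ratio without overlap, since Olig2 itself was lower.

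In the Dnmt3a line the ratio of Olig1 to Olig2 was 5.33, 4.42 and 4.20 in the controls and 3.40, 3.33 and 3.16 in the CKO. It was the only one of the 8 ratios without overlap in this line (log2 difference −0.49, exact permutation p = 0.1), and 0.645% of these rows had a lower ratio without overlap. In the Dnmt1 line it went from 4.92, 4.25 and 4.23 to 2.88, 2.73 and 2.91, so that the CKO libraries of both lines had ratios below all controls. Without the library labelled Dnmt3a control replicate 1, which had the lowest Olig2 of its group, 5 ratios of the Dnmt3a line did not overlap, Olig1 lower and Sox8, Myrf, Nkx2-2 and Nkx6-2 higher, and 11.8% of these rows had ratios without overlap in either direction. Without Dnmt3a CKO replicate 1, 2 did not overlap, Olig1 and Zfp536, both lower, against 9.9% of the rows.

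**Figure D4:**
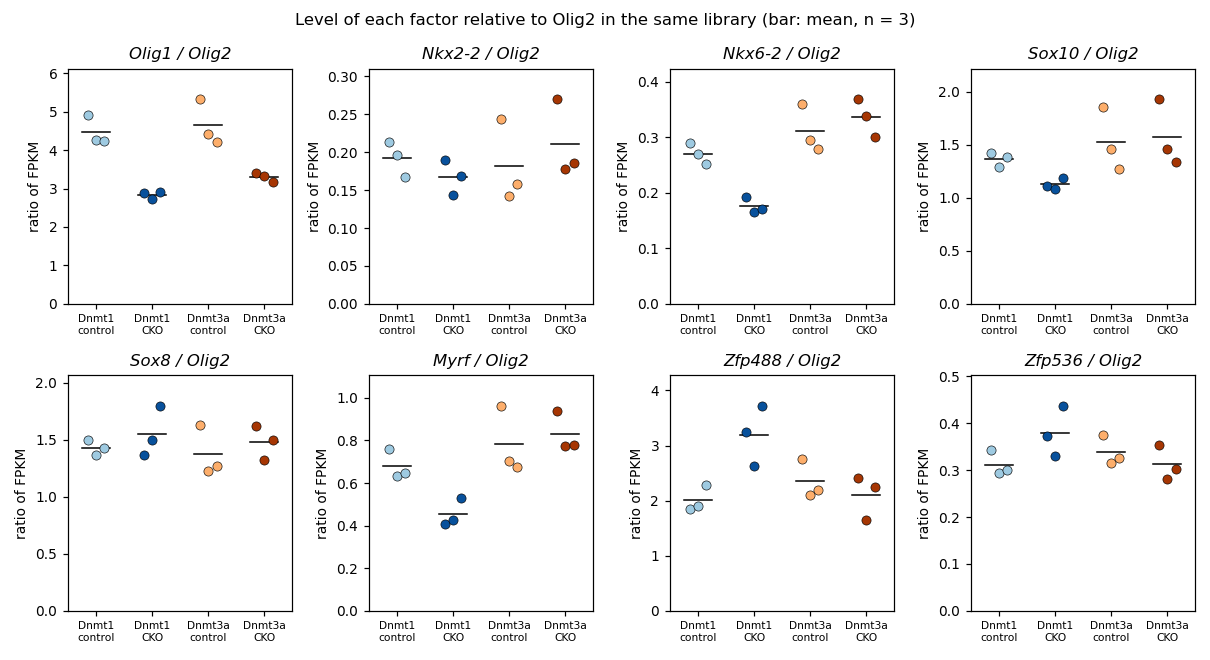
FPKM of each of the 8 other factors divided by that of Olig2 in the same library (y axis, from 0) in the 4 groups (x axis), with a point per library and a bar for the mean. Olig1, Sox10, Myrf and Nkx6-2 lie below all controls in the Dnmt1 CKO, Zfp488 lies above them, and Olig1 is the one factor whose groups do not overlap in the Dnmt3a line.

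Genes that are known targets of SOX10 and MYRF were read beside the factors. All 20 such genes had a negative difference in the Dnmt1 CKO, with a median log2 fold change of −1.52. Of the 20, 18 were called lower, while 2.3% of all rows were called lower. Opalin, a membrane protein of mature oligodendrocytes, had a log2 fold change of −2.45, with 8.48 ± 1.06 FPKM in the controls and 1.48 ± 0.291 FPKM in the CKO (SD, n = 3, adjusted p = 0.0023 from limma). The myelin genes Mobp (−2.23, adjusted p = 0.00032), Mal (−2.08, adjusted p = 0.00021) and Mog (−2.03, adjusted p = 0.0013) followed. The 2 targets that did not pass were Cntn2, an axonal and glial adhesion molecule (−0.15, adjusted p = 0.45), and Cspg4, the NG2 proteoglycan of progenitors (−0.00, adjusted p of 1). The summed level of the 20 targets was 659 to 757 FPKM in the Dnmt1 CKO against 2098 to 2416 FPKM in its controls.

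Markers along the lineage differed in how many were called in the Dnmt1 line, where 2.3% of all rows were called lower. Of 8 progenitor markers, 6 had a negative difference and 1 was called lower, with a list median of −0.14. The called marker was Pdgfra, the growth factor receptor of progenitors (14.1 ± 0.848 to 11.4 ± 0.0984 FPKM, log2 fold change −0.30, adjusted p = 0.046 from limma). Lhfpl3 (−0.21, adjusted p = 0.36) and C1ql1 (−0.23, adjusted p = 0.49) did not pass. All 8 markers of newly formed oligodendrocytes had a negative difference, with a median of −0.51, and 5 were called lower. Among these were Bcas1 (−0.76, adjusted p = 0.0051), Enpp6 (−0.73, adjusted p = 0.027) and Neu4 (−0.65, adjusted p = 0.0072), while Fyn (−0.11) and Tmem108 (−0.07) did not pass. All 10 markers of mature oligodendrocytes were called lower, with a median of −1.99. Ermn, a cytoskeletal protein of the myelin sheath, was among them (−2.15, adjusted p = 0.0013).

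Other regulators of the lineage were read from a pair of lists. Of 24 further regulators, 23 were in the table under their listed symbol and 22 were tested. In the Dnmt1 line 14 of the 22 had a negative difference and 8 a positive difference. The only regulator called was St18, a zinc finger factor that was lower in the CKO (1.45 ± 0.0689 to 1.13 ± 0.0281 FPKM, log2 fold change −0.33, adjusted p = 0.092 from limma). The list median was −0.03, with log2 differences from −0.41 to 0.26, and 2.3% of all rows were called lower. At an unadjusted p under 0.05 limma gave 6 of the 22, against 15% of all rows. Zfp365 (−0.09) and Klf9 (0.15), the most abundant of the others, did not pass. Of 16 inhibitors of differentiation, 12 had a negative difference and 2 were called lower. The called inhibitors were Gpr17, a receptor of newly formed cells that is also in the list above (37.2 ± 0.692 to 25.2 ± 1.40 FPKM, −0.56, adjusted p = 0.0046 from limma), and Sox6, a factor of progenitors (−0.31, adjusted p = 0.053). Lingo1 (0.00) and Id2 (−0.00) did not pass, and the list median was −0.05.

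Markers of other cells of the cortex were read as a check on composition. The astrocyte filament gene Gfap was higher in the Dnmt1 CKO (48.6 ± 1.27 to 66.5 ± 3.10 FPKM, log2 fold change 0.45, adjusted p = 0.0065 from limma), the 1 of 8 astrocyte markers that was called. The others did not pass, and 5 of the 8 had a negative difference, with a list median of −0.07. At an unadjusted p under 0.05 limma gave 4 of the 8, against 15% of all rows. They were Gfap and, in the other direction, the water channel gene Aqp4 (−0.28, adjusted p = 0.14), S1pr1 (−0.18, adjusted p = 0.19) and the gap junction gene Gja1 (−0.11, adjusted p = 0.28), which are named here after their values were seen. The abundant Slc1a2 and Aldoc had −0.11 and −0.03. Of 8 microglia markers 5 had a positive difference and 2 were called higher, the complement genes C1qb (0.42, adjusted p = 0.010 from limma) and C1qa (0.34, adjusted p = 0.013). For neurons, endothelium and choroid plexus, 0 of 8, 0 of 7 and 0 of 6 markers were called, and limma gave 0, 4 and 0 at an unadjusted p under 0.05, against 15% of all rows. The 4 endothelium genes were Tek (−0.43, adjusted p = 0.17), Cldn5 (−0.31, adjusted p = 0.25), Slco1c1 (−0.22, adjusted p = 0.17) and Cdh5 (−0.16, adjusted p = 0.22), each with a negative difference and also named after their values were seen, and the list median was −0.20. The most abundant markers that did not pass had log2 differences of 0.03 (Csf1r) and −0.16 (P2ry12) for microglia, 0.01 (Snap25) and 0.03 (Slc17a7) for neurons, and −0.08 (Ttr) and −0.10 (Folr1) for choroid plexus. The summed level of the 8 microglia markers was 116 to 122 FPKM in the Dnmt1 CKO against 105 to 110 FPKM in its controls. Without C1qa and C1qb the other 6 summed to 58.4 to 63.4 FPKM against 61.2 to 65.2 FPKM, in overlapping ranges. The summed level of the astrocyte markers was 868 to 889 FPKM in the Dnmt1 CKO against 882 to 914 FPKM, and that of the endothelium markers was 73.1 to 79.6 FPKM against 82.3 to 89.2 FPKM. The part of these shifts in the levels of the factors was not tested. In the Dnmt3a line 0 of the 110 genes of these lists were called, and 10 had an unadjusted p under 0.05 with limma, against 7.35% of all rows. The summed level of the astrocyte markers was 948 to 1017 FPKM in the Dnmt3a CKO against 885 to 910 FPKM in its controls, without overlap. The sums of the microglia and endothelium markers overlapped in that line.

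**Figure D5:**
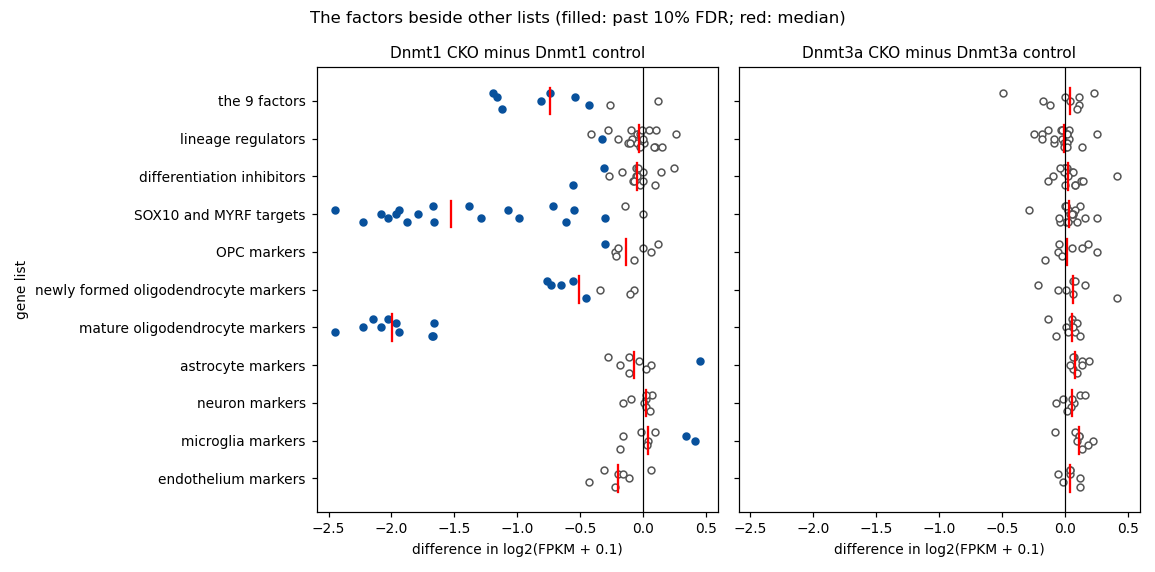
Difference in log2(FPKM + 0.1), CKO minus control (x axis), for each gene of the factor list and of 10 other lists (y axis), in the Dnmt1 line on the left and the Dnmt3a line on the right, with filled points past 10% FDR and a red line at the list median. In the Dnmt1 line the medians are −0.74 for the factors, −1.52 for the SOX10 and MYRF targets, −1.99 for the mature markers and −0.14 for the progenitor markers, and in the Dnmt3a line no point is filled.

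For each factor called in the Dnmt1 line, the genes with the most similar profile were sought by the root mean square difference of centred log2(FPKM + 0.1) over the 12 libraries. Sox10 was followed most closely by Cnksr3 (0.0824), the myelin membrane gene Pllp (0.0930) and Kif19a (0.0958). Myrf was followed by the long non-coding transcript 9630013A20Rik (0.0864), Elovl7 (0.0997) and Gpr37 (0.105). For Sox8 these were Scd2 (0.0777), a fatty acid desaturase, Zdhhc9 (0.0814) and Rnd2 (0.0864), and for Olig2 they were Cml1 (0.0862), Car2 (0.0922) and Tmeff2 (0.0929). For Nkx2-2 they were Fam222a (0.146), Tmem98 (0.166) and Ttyh2 (0.179). Nkx6-2 was the only factor with another among its nearest, after Plekhg3 (0.108) and 9630013A20Rik (0.130), namely Myrf (0.131). Olig1 had the least similar neighbours of the 7, Pla2g4a (0.186), Alox5 (0.196) and Cdc42ep1 (0.204), which had log2 differences of −0.25, −0.22 and −0.18 in the Dnmt3a line, where Olig1 had −0.49. Between members, the closest pair was Myrf and Nkx6-2 and the most distant was Nkx6-2 and Zfp488, at 0.632. These distances use the same libraries as the comparisons above and are a description.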

How the data were processed

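RNA-seq libraries (12, cortex, about 250 ng of total RNA each, TruSeq kit, Illumina HiSeq) were made by the authors, who aligned the reads to mm10 with TopHat and deposited FPKM values per gene from Cufflinks; versions and the annotation are not given in the sources used here. No counts were used. Exact duplicate rows (302) were removed. limma 3.58.1 (R 4.3.3; lmFit, eBayes with a mean-variance trend) was run on log2(FPKM + 0.1) for rows averaging 0.5 FPKM or more over the 12 libraries, with Benjamini-Hochberg adjustment over all rows and a threshold of 10% FDR. Fold changes refer to that scale, on which changes of low genes appear too small. Each line was fitted with its 6 libraries, the difference of effects with all 12 libraries, and the CKO groups with their 6. Ratios to Olig2 were tested with a two-sided exact permutation test. The fit was tested on simulated data: in the Dnmt1 line, of 14148 rows with 198 changed genes, 166 were called, with 66.7% recovered at a log2 change of 0.5 and 92.5% at 1, and 17 unchanged rows were called. Depth was estimated from the steps between the lowest FPKM values of 818 genes with 1 annotated transcript, and fragments per member from its longest transcript (GENCODE M21, GRCm38), so that both are approximate.

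The members and lists were chosen with earlier results of these data known, and the lists and the named genes were set by a rule: the 9 members, the targeted genes, in each list up to 4 called genes with the largest change and up to 2 abundant genes not called, the tested genes within 500 kb of Olig1, the 3 genes most like each called member, and Xist and Y-linked transcripts. Replicate numbers do not mark a shared litter in the labels, and same-numbered libraries did not deviate together. Alternatives were other pseudocounts, filters, eBayes settings, rescaling, quantile normalization, values summed per symbol, a replicate block, Xist as a covariate, 1 model of all libraries, 5% FDR and each library left out in turn.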

Additional observations from a re-analysis of the deposited data

Results flagged for a closer look

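The effect of the CKO differed between the Dnmt1 line and the Dnmt3a line by the interaction test of limma for 6 factors, with log2 differences of −1.27 for Nkx6-2, −1.22 for Myrf, −0.97 for Nkx2-2, −0.86 for Sox10, −0.70 for Olig1 and −0.54 for Sox8. In the interaction test 1.83% of all rows were called lower. The Nkx2-2 call was lost in 10 of 25 alternatives and the Olig1 call in 1. Groups of 3 libraries are too small for a test of single outlying libraries.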

How the results depend on the processing

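The call of 7 factors in the Dnmt1 line became 4 with no filter on low values and 4 at 5% FDR, and 4 to 6 with 1 library left out. It became 5 with Xist as a covariate, where Olig2 (adjusted p = 0.11) and Sox8 (adjusted p = 0.14) missed the threshold, and 6 in eBayes without the trend, where Sox8 did (adjusted p = 0.102). Xist was at 1.69 to 1.85 FPKM in the 3 Dnmt1 CKO libraries, all with Y-linked transcripts. In the Dnmt1 controls it ranged from 0.0306 to 49.4 FPKM, the lowest in a library with Y-linked transcripts. The Xist covariate thus does not stand for sex alone in this line. Of the 941 values of single factors and ratios under an alternative, 877 kept their direction and their side of the threshold, 44 missed the threshold, 9 newly passed it and 11 changed sign. The ratios among them were judged by direction alone, because their exact permutation test cannot reach the threshold with so few libraries. Their place among the 877 therefore says nothing about the threshold. Of the values that changed sign, Olig2 in the Dnmt3a line was 0.00255 with quantile normalization and −0.095 to 0.0898 with 1 library left out, Sox10 in the Dnmt3a line was −0.0656 to 0.154 with 1 library left out, the Nkx2-2 to Olig2 ratio in the Dnmt1 line was 0.0195 with a pseudocount of 1, and the Sox10 to Olig2 ratio in the Dnmt3a line was −0.112 to 0.194 with 1 library left out. The ratios without overlap in the Dnmt3a line numbered 1 to 5 with 1 library left out. Of the lists in the Dnmt1 line, the lineage regulators had 0 called genes with a pseudocount of 0.01, a minimum mean of 0.1 FPKM, no filter or 5% FDR, 2 with median ratio rescaling or quantile normalization, and 0 to 1 with 1 library left out. The inhibitors had 1 called gene at 5% FDR and 1 with any library left out, the progenitor markers had 0 to 1 and the newly formed markers 3 to 5 with 1 library left out. The astrocyte markers had 2 called genes with the robust setting, and the endothelium markers had 1 with the robust setting and 1 in the model of all 12 libraries. The cause of these shifts was not tested.

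With the replicate number as a block, 162 rows were called in the Dnmt1 line against 444 without it and 399 against 705 between the CKO groups, and Sox8 (adjusted p = 0.25) and Nkx2-2 (adjusted p = 0.11) missed the threshold, leaving 5 factors. The block gave 0 called lineage regulators, 1 inhibitor, 0 progenitor markers and 3 newly formed markers, and Olig2 passed in the difference of effects (adjusted p = 0.048). The numbers share no litter in the labels, and deviations of same-numbered libraries correlated at −0.06 to 0.04 in the Dnmt1 line and −0.08 to 0.02 in the Dnmt3a line.

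Nkx2-2 and Nkx6-2 rest on the fewest fragments, about 79 to 278 per library for Nkx6-2 and 87 to 194 for Nkx2-2, which alone gives a counting error of about 11.2% and 10.7% in the lowest library.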
